A study of Mus musculus with 1 sample.

Results

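Stra6, Rdh10, Aldh1a1, Aldh1a2, Crabp1, Cyp26b1, Rara, Rarg and Stra8 encode proteins of the vitamin A pathway, from the uptake of retinol to the response to retinoic acid. They were picked by symbol and are 9 of the 27998 genes listed for the library, and all 9 had counts in the cells kept. The study screened transcription factors by RNA interference in cultured spermatogonia for effects on stem cell content, and followed the candidate ZSCAN2 in knockout mice. The library described here is the wild-type control of that later part (Zscan2+/+, strain C57BL/6). It was made on the Chromium platform from testis cells of 3 mice at postnatal day 8, which were pooled before loading. Cells that had been selected with magnetic beads for THY1, a cell surface marker of undifferentiated spermatogonia, were mixed with some unselected testis cells, so the shares of cell types follow from that mixture. The library of Zscan2−/− mice was not analysed here, and with 1 library of pooled mice no test between samples was possible.

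Retinol enters cells through receptors such as STRA6, is oxidised to retinal and then to retinoic acid, and is cleared by enzymes of the CYP26 family. Retinoic acid acts through nuclear receptors (RARs, paired with RXRs) that sit on DNA and switch target genes on when they bind it. In the testis retinoic acid is known as the signal that moves undifferentiated spermatogonia into differentiation and later prompts entry into meiosis, and Stra8 is the response gene most often used to follow both steps.

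The genes lie on several chromosomes of the mouse assembly GRCm38, and each is annotated as protein coding. Stra8 runs on the plus strand of chromosome 6 from 34920163 to 34939344 and Cyp26b1 on the minus strand of the same chromosome from 84571414 to 84593908. On chromosome 9 lie Crabp1 (54764748 to 54773110), Stra6 (58063788 to 58153996) and Aldh1a2 (71215789 to 71296243), all on the plus strand. Rdh10 is on chromosome 1 (16105774 to 16133734), Rara on chromosome 11 (98927818 to 98974942) and Aldh1a1 on chromosome 19 (20492715 to 20643465), each on the plus strand, while Rarg is on the minus strand of chromosome 15 (102234938 to 102257517). Genes annotated on the opposite strand overlap Aldh1a1, Aldh1a2 and Stra6, and genes on the same strand overlap Stra6 (Gm16131) and Rara (Gm22061). For Aldh1a1, 3.16% of the 60-base words at the ends of its transcripts also occur in its close relative Aldh1a7, so some of their reads cannot be told apart.

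RAR proteins bind copies of a hexamer close to AGGTCA. Promoters of 300 bases (250 before and 50 after the annotated start) were available from RefSeq (GRCm38.p6) for 8 of the 9 genes, and they were searched on both strands for AGGTCA and for its variants, which were AGTTCA, likewise GGGTCA, likewise GGTTCA. The promoters of 2 genes that differed between germ cell stages are shown, Stra8 at chr6:34920698-34920997 and Crabp1 at chr9:54764498-54764797, both on the plus strand, with matches in capitals.
Stra8: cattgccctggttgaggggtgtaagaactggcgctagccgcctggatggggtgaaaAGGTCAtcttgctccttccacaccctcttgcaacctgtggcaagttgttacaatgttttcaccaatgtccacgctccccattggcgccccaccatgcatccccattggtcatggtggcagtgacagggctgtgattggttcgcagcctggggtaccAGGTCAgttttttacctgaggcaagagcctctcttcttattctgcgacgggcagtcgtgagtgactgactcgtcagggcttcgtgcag
Crabp1: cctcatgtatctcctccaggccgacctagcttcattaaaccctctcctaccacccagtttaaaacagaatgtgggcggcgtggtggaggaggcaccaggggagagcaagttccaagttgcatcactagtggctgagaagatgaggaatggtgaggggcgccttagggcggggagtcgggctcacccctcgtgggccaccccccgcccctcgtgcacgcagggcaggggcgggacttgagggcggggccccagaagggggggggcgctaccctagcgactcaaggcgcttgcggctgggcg

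The Stra8 promoter held 2 copies of AGGTCA, both on the plus strand, which began 194 and 38 bases before the RefSeq start at 34920948. That start lies inside the gene span given above, which comes from another annotation, as do the RefSeq starts of Stra6. Of the 32851 promoters in the same RefSeq table, 16.3% held at least 1 copy of AGGTCA and 1.81% held at least 2. The Crabp1 window held none of the 4 hexamers, as did those of Cyp26b1 and Aldh1a2, and 43.7% of all promoters held at least 1. Of the 4 windows of Rara, 1 held 4 hexamers, a number reached by 0.581% of promoters, and 1 held AGGTCA, as did 1 of the 2 windows of Rarg. These shares are per promoter, so a gene with several windows has more chances of a match. A window of Aldh1a1 and a window of Stra6 held 1 hexamer each. No window of the genes described held a direct repeat of these hexamers with a spacer of 1, 2 or 5 bases, a pattern found in 0.222%, 0.268% and 0.0974% of all promoters. A match describes the letters only, and the absence of one says nothing about the factor.

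The deposited matrix held 970 barcodes, of which 920 were kept, with 2655 to 44915 UMIs per kept cell (a UMI is a molecular tag that counts 1 captured RNA molecule). Clustering without the retinoid genes gave 324 germ cells in 3 stages, namely 113 SSC-like (for spermatogonial stem cell), 75 progenitor-like and 136 differentiating-like cells, and among the others 255 Sertoli-like, 186 stromal-like, 94 peritubular myoid-like and 35 macrophage-like cells. The remaining 26 cells, with both T cell and contractile genes, were left unnamed. Stages were named without Rarg and Stra8, which are often used for this. Germ cell markers summed to 1732 CPM (UMIs per 1000000 UMIs of the class) in germ cells and 36.9 CPM in somatic cells, and Sertoli markers to 5038 CPM in Sertoli-like and 50.4 CPM in germ cells. SSC-like cells had a median depth of 22233 UMIs, progenitor-like cells 19301, differentiating-like cells 10936 and Sertoli-like cells 8343. Of the differentiating-like cells, 50 belonged to a shallow group of 63 germ cells with a median of 3996 UMIs. All intervals below are exact 95% intervals, which cover counting error only and not the spread between mice. Those of levels and ratios pool the UMIs of a group and also leave out the spread between its cells.

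The pathway was divided between cell types. Of the 7 named classes, Stra6, Rdh10, Aldh1a1, Aldh1a2 and Rara were highest in Sertoli-like cells, the somatic cells that surround and nourish germ cells. Cyp26b1 was highest in stromal-like and peritubular myoid-like cells, which lie outside the tubule epithelium, and Crabp1, Rarg and Stra8 were highest in germ cells. Between germ and somatic cells 3 of the 9 genes were at least 2-fold higher in germ cells and 5 were at least 2-fold lower, against 25.3% and 28.7% of the 12989 genes with 20 or more UMIs.

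**Figure D1:**
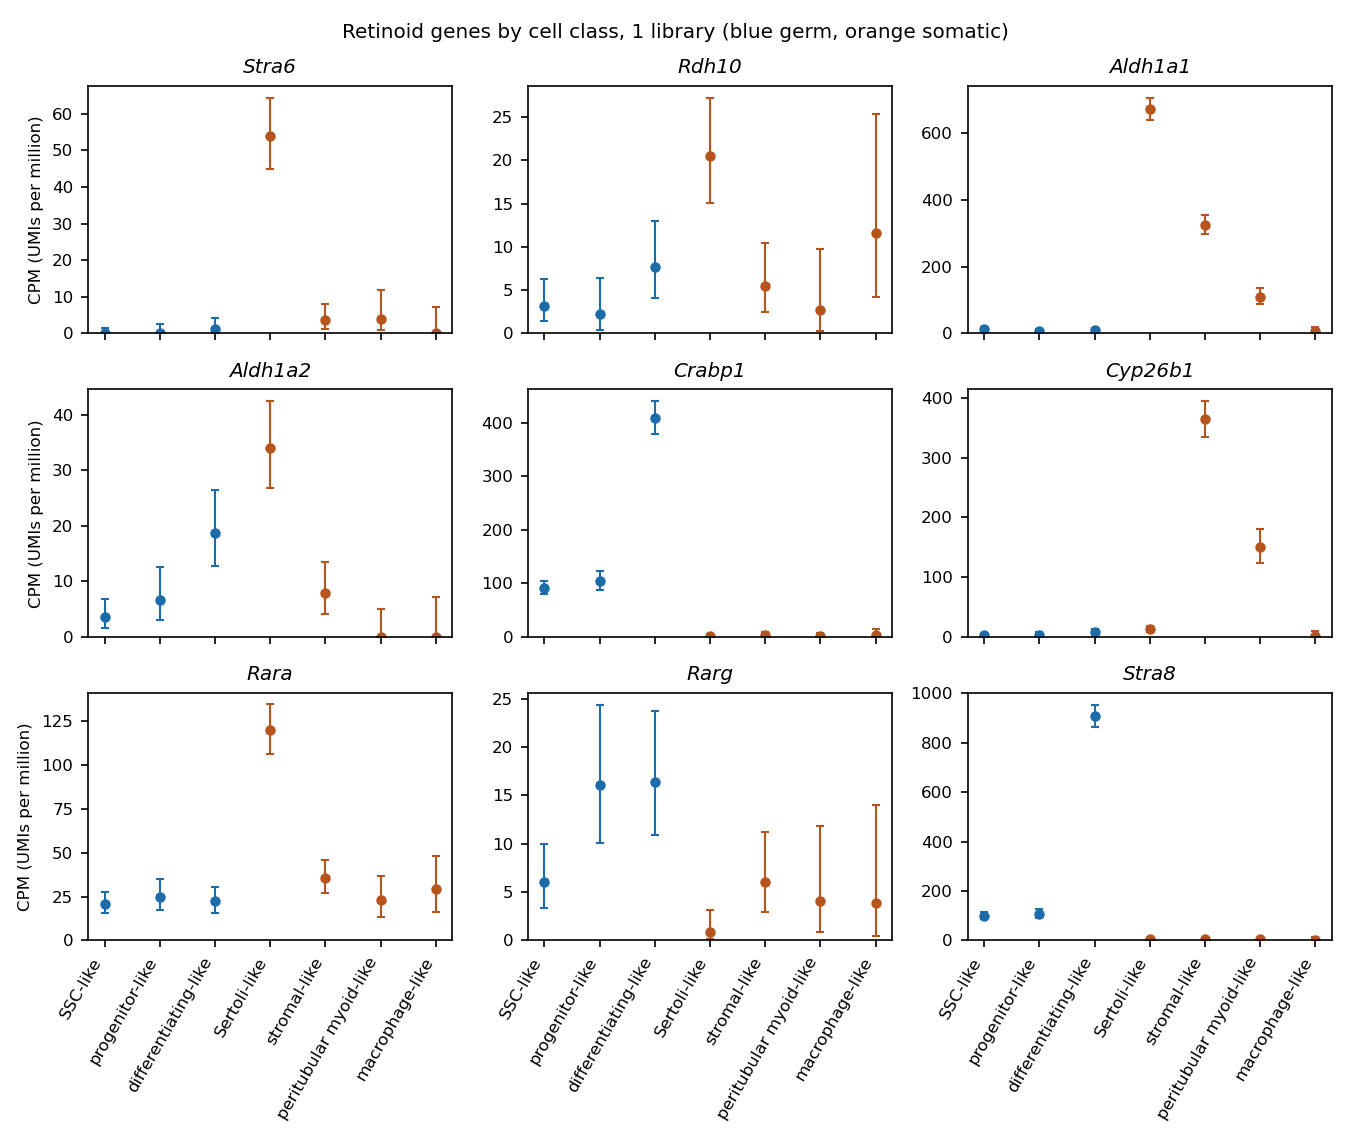
Level of each of the 9 genes (CPM, linear axes from 0 that differ between panels) in the 7 named classes, with germ stages in blue and somatic classes in orange. Points are summed UMIs of 1 library and bars are exact Poisson intervals. Aldh1a1 reached 673 CPM in Sertoli-like cells, Cyp26b1 364 CPM in stromal-like cells and Stra8 906 CPM in differentiating-like cells.

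Stra6, the membrane receptor that takes up retinol from its carrier in blood, was found almost only in Sertoli-like cells. They held 124 of its 135 UMIs, a level of 54.0 CPM (interval 44.9 to 64.4). Stromal-like cells had 3.65 CPM and peritubular myoid-like cells 4.05 CPM, from 6 and 3 UMIs, respectively. Germ cells had 2 UMIs among 324 cells, and macrophage-like cells had 0. The level in Sertoli-like cells was 42.3-fold that in all other cells together (log2 ratio 5.40, interval 4.51 to 6.44). With a mitochondrial limit of 5%, which removed most Sertoli-like and germ cells, the log2 ratio was 2.72. A Stra6 UMI was seen in 29.8% of Sertoli-like cells, and in 20% when each cell was thinned to 5000 UMIs, against 0.617% of germ cells, which were deeper. In the comparison of Sertoli-like with all other cells 5 of the 9 genes were at least 2-fold higher and 4 lower, where 17.1% and 28.3% of 12989 genes were.

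Rdh10, the main enzyme that oxidises retinol to retinal, was sparse, with 88 UMIs in all. Its level was 20.5 CPM in Sertoli-like cells (15.04 to 27.2) and 11.6 CPM in macrophage-like cells (4.27 to 25.3). Stromal-like cells had 5.48 CPM and peritubular myoid-like cells 2.70 CPM. The intervals of Sertoli-like and macrophage-like cells overlapped, and that of macrophage-like cells rests on 6 UMIs. Among germ cells, differentiating-like cells had 7.62 CPM (4.06 to 13.0), SSC-like cells 3.22 CPM and progenitor-like cells 2.20 CPM. Germ cells as a whole held Rdh10 at 21.1% of the Sertoli-like level (12.3 to 35.2%), where the Sertoli markers stood at 1.001% of theirs (single markers from 0 to 1.29%). The source of Rdh10 RNA in germ cells was not tested.

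Aldh1a1 and Aldh1a2 encode dehydrogenases that turn retinal into retinoic acid, the committed step. Aldh1a1 had 673 CPM in Sertoli-like cells (639 to 707), where 94.1% of cells held a UMI, 326 CPM in stromal-like cells (299 to 355), and 111 CPM in peritubular myoid-like cells (88.1 to 137). The interval of each of these classes lay apart from the others. In germ cells it had 12.9, 8.06 and 11.1 CPM in the 3 stages in their order, which overlapped. The germ cell level was 1.66% of the Sertoli-like one (1.27 to 2.14%), against 1.001% for the summed Sertoli markers (0.886 to 1.13%). Its interval included the highest single marker, 1.29%. In stromal-like and peritubular myoid-like cells together Aldh1a1 stood at 38.5% of its Sertoli-like level and these markers at 1.72%. In macrophage-like cells Aldh1a1 stood at 1.15% (0.314 to 2.96%), from 4 UMIs, and the markers at 0.615%. How closely the markers follow free Aldh1a1 RNA was not tested, nor was the source of Aldh1a1 RNA in germ cells. The level in Sertoli-like cells was 3.32-fold that of the other somatic cells (log2 ratio 1.73, interval 1.59 to 1.87). In that comparison 5 of the 7 genes with enough UMIs were at least 2-fold higher in Sertoli-like cells and 1, Cyp26b1, was lower, where 22.5% and 17.6% of 11146 genes were.

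Much of the stromal Aldh1a1 came from a few cells with steroidogenic genes. Within the stromal-like class, 9 cells carried between 14 and 377 UMIs of the Leydig markers Cyp11a1, Star, Hsd3b1, Cyp17a1 and Insl3, while 166 cells carried 0 and 11 carried 1 to 9. The 9 cells held 253 of the 535 stromal Aldh1a1 UMIs (47.3%), and 1 of them held 97. Their summed level was 2039 CPM (1795 to 2306), above that of Sertoli-like cells. It rests on a few high cells, since the median cell held 9 Aldh1a1 UMIs, at a median depth of 12898 UMIs. In Sertoli-like cells the median was 5 at a depth of 8343. The other stromal-like cells had 186 CPM (165 to 209), with no more than 17 UMIs in a cell. The 9 cells went against the stromal label, since Dcn, a matrix gene of fibroblasts, had 193 CPM in them and 4049 CPM in the rest, and Pdgfra had 24.2 and 373 CPM. They also held the retinol dehydrogenase gene Adh1 at 435 CPM, against 1.32 CPM in the other stromal-like cells, and Dhrs3, which reduces retinal back to retinol, at 153 against 34.3 CPM. Without the 9 cells the log2 ratio of Aldh1a1 in Sertoli-like over other somatic cells was 2.43 (2.26 to 2.59), and without the cell with most Aldh1a1 it was 1.97. This grouping was made after the values were seen.

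Aldh1a2 had another distribution over the classes. Sertoli-like cells had 34.0 CPM (26.9 to 42.4), stromal-like cells 7.92 CPM (4.22 to 13.5), and peritubular myoid-like and macrophage-like cells had 0 UMIs in 94 and 35 cells, which at a limit of 3 counts allows a share of cells with a UMI of up to 3.19% and 8.57%. The Sertoli-like level was 6.23-fold that of stromal-like and peritubular myoid-like cells together (log2 ratio 2.64, interval 1.78 to 3.61), and 3.85 on the log2 scale in a count split, in which some UMIs set the clusters and the others the levels. Unlike Aldh1a1, it differed between germ stages, with 18.8 CPM in differentiating-like cells (12.8 to 26.5), against 3.62 CPM in SSC-like cells (1.66 to 6.88) and 6.59 CPM in progenitor-like cells (3.01 to 12.5). The last pair overlapped, and the differentiating-like level was 4.01-fold that of the SSC-like and progenitor-like cells together (log2 ratio 2.005, interval 1.13 to 2.92). With the shallow germ cells left out this ratio was 1.97. Germ cells held Aldh1a2 at 26.5% of the Sertoli-like level (18.2 to 38.3%), above any single Sertoli marker. The source of this RNA in germ cells was not tested.

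The 3 Sertoli-like clusters did not share the uptake and synthesis genes evenly. In the 73 cells of the cluster led by Cidea and Fstl3, Stra6 had 107 CPM (82.9 to 135), against 31.6 CPM in the 137 cells of the Gstm6 and Wfdc10 cluster and 39.0 CPM in the 45 cells of the Arhgef39 and Prc1 cluster. Rdh10 had 58.1 CPM (40.9 to 80.1) in the first, from 37 of the 47 Sertoli-like UMIs, and 1.71 and 16.4 CPM in the others. Aldh1a1 ran the other way, with 390 CPM (343 to 441) in the Cidea and Fstl3 cluster, 838 CPM in the Gstm6 and Wfdc10 cluster and 645 CPM in the Arhgef39 and Prc1 cluster. Aldh1a2 (29.8, 35.8 and 34.9 CPM) and Rara (140, 111 and 115 CPM) overlapped between the clusters. The median depths, 7910, 8244 and 10445 UMIs, were alike in the first pair.

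Over the other Sertoli-like cells the log2 ratio in the Cidea and Fstl3 cluster was 3.27 for Rdh10 (2.23 to 4.44), 1.66 for Stra6 (1.13 to 2.20) and -1.004 for Aldh1a1 (-1.21 to -0.81). Of 6 genes with enough UMIs, 2 were at least 2-fold higher (2.73% of 8543 genes were) and 2, Aldh1a1 and Cyp26b1, were at least 2-fold lower (5.56%). Cyp26b1 rests on 3 UMIs in the cluster, 4.71 CPM (0.972 to 13.8). The other Sertoli-like cells had 16.3 CPM (10.7 to 23.7), an interval that overlapped. Of the 17 other genes of the wider pathway list with enough UMIs, 2 were at least 2-fold higher and 0 lower. These were Tgm2, an enzyme gene known to respond to retinoic acid, at 47.1 against 4.82 CPM, and Dgat1, which can esterify retinol, at 20.4 against 9.04 CPM, with a log2 ratio whose interval, -0.02 to 2.35, included 0. At full depth cells tended to hold Stra6 and Rdh10 together. A Stra6 UMI was found in 51.7% of the 29 Sertoli-like cells with Rdh10 (32.5 to 70.6%) and in 27.0% of the 226 without it (21.3 to 33.3%). These intervals overlapped slightly, and after thinning the shares were 37.5% (15.2 to 64.6%) and 18.7% (13.8 to 24.5%).

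The cluster was singled out after its values were seen, and it did not form under every setting. With variable genes by vst, with 10 or 20 principal components and in the count split the cells merged with the larger Sertoli-like cluster, and the cluster closest to it had, in this order, log2 ratios of -0.07, -0.09, 1.57 and 0.38 for Rdh10. The ratios of Stra6 there were 0.20, 0.19, 0.67 and 0.79, and those of Aldh1a1 were 0.10, 0.11, 0.14 and 0.17, so that the direction of Aldh1a1 was reversed in these 4 settings. When the Sertoli-like cells were instead divided by whether they held a UMI of Cidea or Fstl3 (130 against 125 cells), the log2 ratio was 2.56 for Rdh10 (1.31 to 4.09), 1.92 for Stra6 (1.26 to 2.64) and -0.39 for Aldh1a1 (-0.54 to -0.25).

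**Figure D2:**
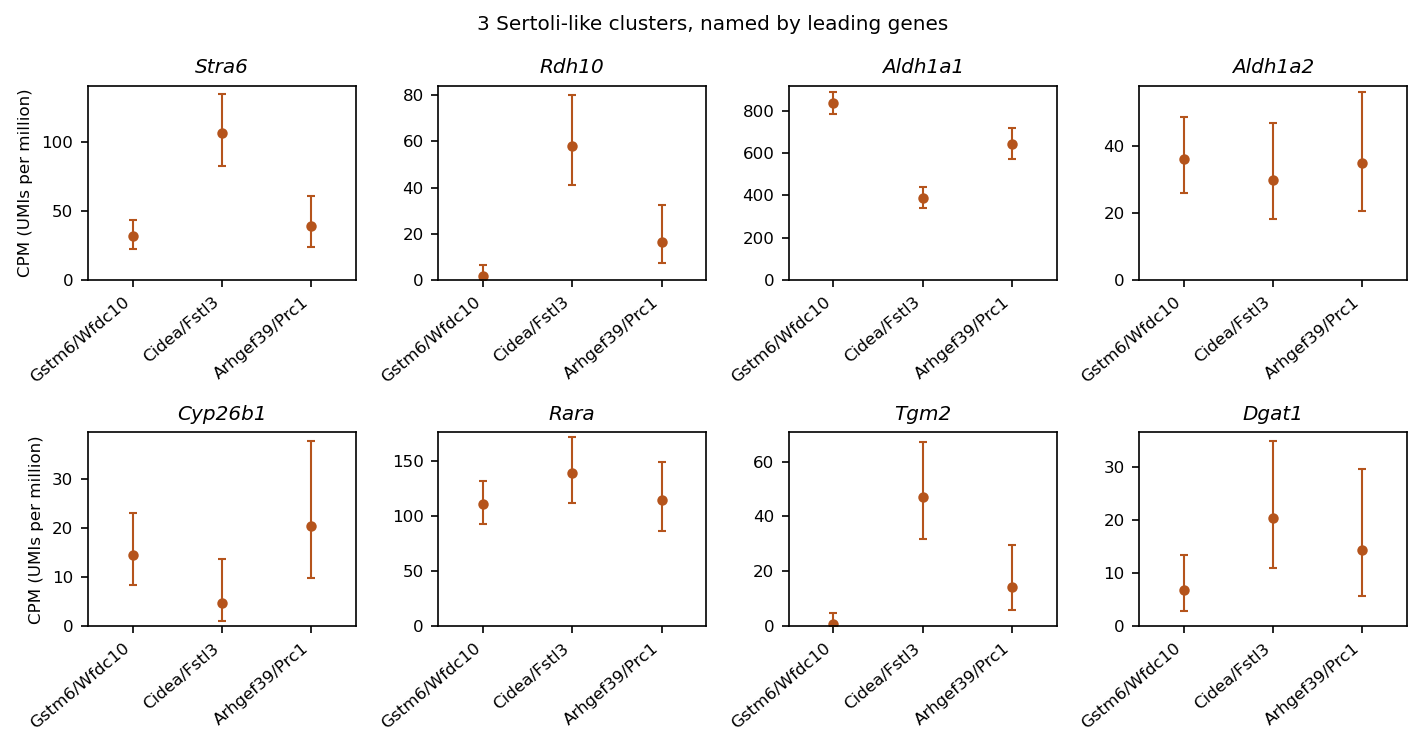
Levels (CPM, linear axes from 0 that differ between panels) of 8 genes of the pathway in the 3 Sertoli-like clusters, which are named by leading genes. Points are summed UMIs and bars exact Poisson intervals. In the Cidea and Fstl3 cluster Stra6, Rdh10 and Tgm2 were highest and Aldh1a1 was lowest, while Aldh1a2 and Rara overlapped between clusters.

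Crabp1, a protein that holds retinoic acid in the cytoplasm, was a germ cell gene in these cells. Differentiating-like cells had 409 CPM (379 to 440), SSC-like cells 91.0 CPM (79.5 to 104) and progenitor-like cells 104 CPM (87.6 to 123). The last pair overlapped, and the first was 4.28-fold the level of undifferentiated-like cells, as the SSC-like and progenitor-like cells together are called here (log2 ratio 2.096, interval 1.91 to 2.28). Over 19 other settings this ratio stayed between 1.93 and 2.14. Somatic cells had 2.99 CPM, 1.56% of the germ cell level, where the germ cell markers stood at 2.13% (single markers from 1.56 to 9.78%).

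The differentiating-like cells fell into 2 clusters, 103 cells led by genes such as Kit and Lmo1 and 33 cells led by Prss50 and Ly6k. Crabp1 had 464 CPM (427 to 503) in the first and 243 CPM (198 to 294) in the second (log2 ratio -0.93, interval -1.25 to -0.63). All 50 shallow differentiating-like cells belonged to the first cluster, and without them Crabp1 had 449 CPM (409 to 492) there. Its paralog Crabp2 had only 13 UMIs in all cells.

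Cyp26b1, which breaks retinoic acid down, was found mostly outside the Sertoli-like and germ cells. Stromal-like cells had 364 CPM (335 to 394) and peritubular myoid-like cells 150 CPM (123 to 181), with a UMI in 69.9% and 48.9% of cells. Sertoli-like cells had 13.1 CPM (8.82 to 18.7), macrophage-like cells 1.94 CPM from 1 UMI, and the germ stages 2.82, 3.66 and 8.21 CPM. The stromal-like and peritubular myoid-like cells together were 22.7-fold above the Sertoli-like cells (log2 ratio 4.51, interval 3.98 to 5.09), and over 21 other settings the ratio lay between 4.13 and 4.69. It was the 1 gene of 7 that was at least 2-fold higher there (14.3% of 10575 genes were), while 5 were lower (25.0%).

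Stromal-like cells stood 2.43-fold above peritubular myoid-like cells for Cyp26b1 (log2 ratio 1.28, interval 0.98 to 1.58), and Aldh1a1 was higher too, so that 2 of the 3 genes with enough UMIs were at least 2-fold higher in stromal-like cells, where 10.1% of 8291 genes were, and 0 were lower (6.90%). Without the Leydig marker cells the ratio of Aldh1a1 fell under 2-fold (log2 ratio 0.75, interval 0.39 to 1.12). Cyp26b1 was not concentrated in those cells, with 330 CPM in them (237 to 448) and 366 CPM in the other stromal-like cells (337 to 398). Within the stromal-like class Cyp26b1 was more frequent in cells with Aldh1a1 but was not confined to them. At full depth 82.7% of the 98 cells with Aldh1a1 held a Cyp26b1 UMI, and 55.7% of the 88 without. The 42 cells with 3 or more Aldh1a1 UMIs had Cyp26b1 at 617 CPM (546.6 to 694.5), the 56 cells with 1 or 2 at 360 CPM (310 to 415) and the 88 cells with none at 197 CPM (165 to 234). Median depths were 10310, 9399 and 7262 UMIs, and after thinning a Cyp26b1 UMI was found in 70.3% of cells with Aldh1a1 and in 51.0% of those without, with intervals that overlapped (58.5 to 80.3% and 40.7 to 61.3%). In Sertoli-like cells Cyp26b1 stood at 3.59% of the stromal-like level (2.40 to 5.19%), while the stromal markers stood at 0.458% (single markers up to 0.851%). In germ cells it stood at 1.29%, within the range of the single stromal markers there, 0.115 to 1.92%.

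The receptors showed opposite patterns. Rara, the retinoic acid receptor best known in Sertoli cells, had 120 CPM in Sertoli-like cells (106 to 135), with a UMI in 58.4% of them. Stromal-like cells had 35.3 CPM, macrophage-like cells 29.1 CPM and peritubular myoid-like cells 23.0 CPM, which overlapped. Among germ cells, SSC-like cells had 20.9 CPM (15.6 to 27.5), progenitor-like cells 24.9 CPM (17.2 to 34.8) and differentiating-like cells 22.3 CPM (15.8 to 30.6), with no difference detectable at this depth. Sertoli-like cells were 5.37-fold above germ cells (log2 ratio 2.42, interval 2.11 to 2.74). Of the 9 genes, 6 were at least 2-fold higher in Sertoli-like than in germ cells and 3 lower, where 24.2% and 27.5% of 11729 genes were. The germ cell level of Rara was 18.6% of the Sertoli-like one (14.95 to 23.1%), above any single Sertoli marker. Its source in germ cells was not tested either.

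Rarg, the receptor linked to spermatogonia that can respond to retinoic acid, was sparse, with 83 UMIs in all. SSC-like cells had 6.04 CPM (3.38 to 9.96), progenitor-like cells 16.1 CPM (10.1 to 24.4) and differentiating-like cells 16.4 CPM (10.9 to 23.7). SSC-like cells were at 0.375 times the progenitor-like level (log2 ratio -1.42, interval -2.47 to -0.40). Rarg was the 1 gene of 5 with enough UMIs that was at least 2-fold lower in SSC-like cells (3.28% of 9541 genes were), and 0 were at least 2-fold higher (6.06%). In 19 other settings that ratio was negative in each, from -2.71 to -0.94. Sertoli-like cells had 2 UMIs, or 0.871 CPM (0.106 to 3.15), and stromal-like cells 6.09 CPM (2.92 to 11.2), a level that overlapped that of SSC-like cells. In germ over somatic cells the log2 ratio was 1.80 (1.03 to 2.64), or 0.83 with a mitochondrial limit of 5%. Within the differentiating-like cells, the Kit and Lmo1 cluster had 20.3 CPM (13.3 to 29.7) and the Prss50 and Ly6k cluster 4.71 CPM (0.571 to 17.0), from 26 and 2 UMIs. Without its shallow cells the Kit and Lmo1 cluster had 22.4 CPM (14.2 to 33.6). Rarg was again the 1 gene of 5 that was at least 2-fold lower in the Prss50 and Ly6k cluster, where 13.1% of 7419 genes were, and 0 were higher (10.2%).

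**Figure D3:**
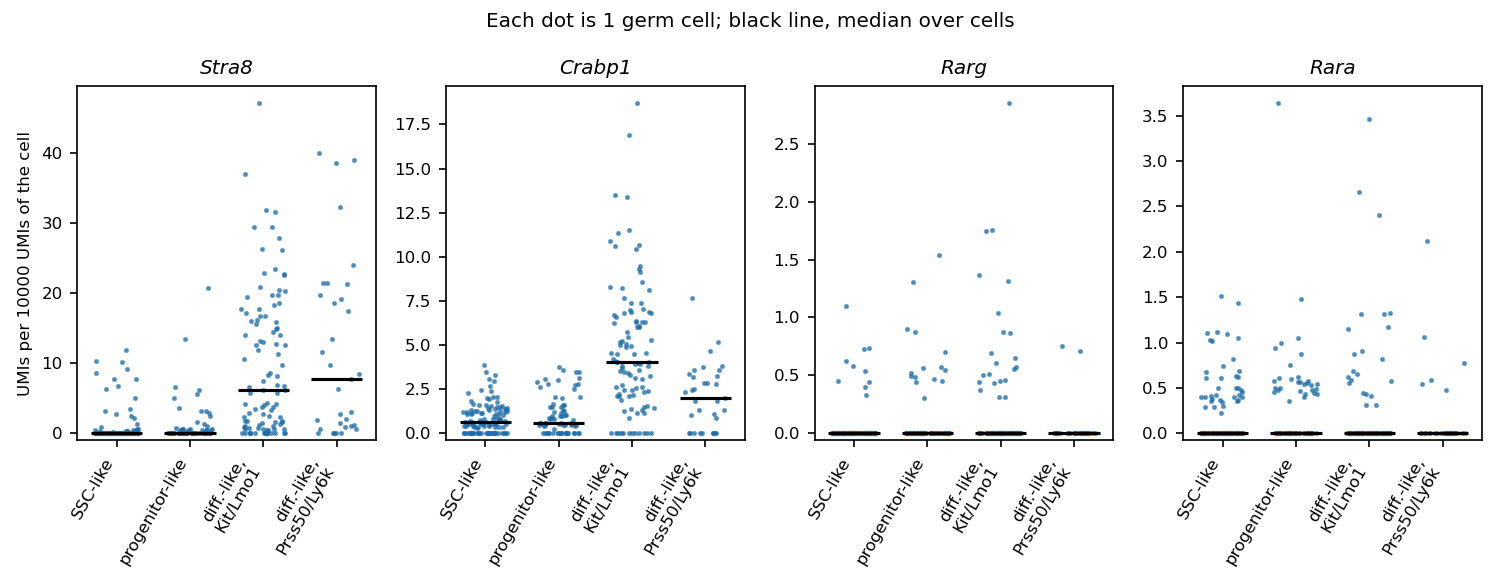
Stra8, Crabp1, Rarg and Rara in single germ cells, as UMIs per 10000 UMIs of the cell (linear axes that differ between panels), by stage. Each dot is 1 cell and the black line is the median over cells. Most undifferentiated-like cells sit at 0 for Stra8 with a few high cells, whereas 84.6% of differentiating-like cells held a Stra8 UMI.

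Stra8, the response gene, was higher in differentiating-like cells than in the other germ cells. Differentiating-like cells had 906 CPM (862 to 953), SSC-like cells 100.6 CPM (88.5 to 114) and progenitor-like cells 108 CPM (91.6 to 127), and somatic cells had 4.48 CPM, 1.28% of the germ cell level. The differentiating-like level was 8.77-fold that of undifferentiated-like cells (log2 ratio 3.13, interval 2.97 to 3.29), and with the shallow cells left out the log2 ratio was 3.09, while in the count split it was 1.87. A UMI was found in 84.6% of differentiating-like cells, 36.0% of progenitor-like cells and 25.7% of SSC-like cells, and after thinning in 75.0%, 20.6% and 15.3%, against 2.01% of somatic cells. The Kit and Lmo1 cluster (890 CPM, 839 to 943) and the Prss50 and Ly6k cluster (956 CPM, 866 to 1054) overlapped. Of the 8 genes with enough UMIs, 5 were at least 2-fold higher in differentiating-like than in undifferentiated-like cells, where 8.14% of 10519 genes were, and 0 were at least 2-fold lower (9.96%). These were Stra8, Crabp1, Aldh1a2, Rdh10 and Cyp26b1. The last pair rests on 24 and 26 UMIs, with intervals of 0.14 to 2.72 and 0.18 to 2.64 on the log2 scale, and the germ cell level of Cyp26b1 was within that of the stromal markers there.

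The near equality of Stra8 in SSC-like and progenitor-like cells (log2 ratio -0.11, interval -0.41 to 0.20) did not hold under every setting. It was -4.44 at a germ cell resolution of 1.2, -3.16 with 20 principal components, 0.86 in the count split and 1.02 when germ cells were taken by a UMI of Ddx4 or Dazl. The single cells show how unevenly the UMIs were spread. Of the 188 undifferentiated-like cells, 132 had 0 Stra8 UMIs, 33 had 1 or 2, and 23 had 3 or more. Those 23 cells held 358 of the 398 UMIs (89.9%), 16 of them in the SSC-like and 7 in the progenitor-like class, so each stage's level rests on few cells.

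The undifferentiated-like cells with 3 or more Stra8 UMIs also differed in other genes from those with 0, at median depths of 22215 and 20071 UMIs. Crabp1 had 149 CPM (118 to 185) in the former and 86.5 CPM (75.6 to 98.5) in the latter. Kit, the receptor that marks differentiation, had 26.3 CPM (14.4 to 44.2) against 4.17 CPM (2.08 to 7.47), and Rec8, a cohesin gene of meiosis known to respond to retinoic acid, had 30.1 CPM (17.2 to 48.8) against 5.31 CPM (2.90 to 8.91). Sall4, a transcription factor gene of spermatogonia, had 175 CPM (141 to 214) against 78.9 CPM (68.6 to 90.4). Cyp26a1, a breakdown enzyme that retinoic acid is known to induce, had 13.2 CPM (5.29 to 27.1), from 7 UMIs, against 0.759 CPM (0.0919 to 2.74), from 2. In each of these genes the intervals lay apart, although they leave out the spread between cells.

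Etv5 and Id4, from the 6 SSC markers that named the stage, had lower values in those cells, with intervals that overlapped for both. Their levels were 30.1 CPM (17.2 to 48.8) and 7.52 CPM (2.05 to 19.3) against 50.8 CPM (42.6 to 60.2) and 20.9 CPM (15.7 to 27.2). The other SSC markers are not reported for these groups. Rarg had 5.64 CPM (1.16 to 16.5) from 3 UMIs against 10.2 CPM (6.75 to 14.9), and Rara 16.9 CPM (7.74 to 32.1) against 25.04 CPM (19.4 to 31.9), and the intervals overlapped for both receptors. Over all germ cells a Rarg UMI was seen in 17.0% of the 171 cells with Stra8 (11.7 to 23.4%) and 13.1% of the 153 without (8.17 to 19.5%). These groups were formed after the values had been seen and are a description.

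Among differentiating-like cells Stra8 was found in cells of different kinds. In the Kit and Lmo1 cluster 67 cells had 3 or more Stra8 UMIs, 20 had 1 or 2 and 16 had 0, with median depths of 9682, 17264 and 3752 UMIs, so cells with none were shallow. The 67 cells had Stra8 at 1233 CPM and still held Ccnd2, a cyclin gene, at 337 CPM (300 to 377) and Sall4 at 83.1 CPM (65.4 to 104), with Dmrtb1, a regulator of the switch from mitosis to meiosis, at 27.7 CPM (17.9 to 40.9). The 20 cells with 1 or 2 UMIs were deeper only by their median, and some of them were shallow. They had the reverse, with Ccnd2 at 20.8 CPM (7.62 to 45.2), Sall4 at 17.3 CPM (5.62 to 40.4) and Dmrtb1 at 173 CPM (128 to 228). Their Crabp1 was higher, 592 CPM (506 to 687) against 426 CPM (384 to 470), and Kit was alike at 121 and 103 CPM. With the shallow cells left out, the 15 cells under 3 UMIs and the 38 cells with more kept these differences, with Dmrtb1 at 161 and 27.9 CPM and Ccnd2 at 29.3 and 336 CPM.

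Stra8 levels in cells picked by their Stra8 UMIs are raised by that choice, and those of the whole clusters, 890 and 956 CPM, overlapped. In the Prss50 and Ly6k cluster, 22 of 33 cells had 3 or more Stra8 UMIs, at 1505 CPM. These cells had Rec8 at 72.0 CPM (43.4 to 112), Sycp1, of the meiotic synaptonemal complex, at 875 CPM (766 to 996), and Sycp3 at 523 CPM (439 to 618), against 13.3, 278 and 243 CPM in the Stra8 cells of the Kit and Lmo1 cluster. Ccnd2 was at 7.58 CPM and Sall4 had 0 UMIs, which at the same limit allows up to 13.6% of the 22 cells with a UMI. Their Crabp1 was 186 CPM (137 to 245), below that of every group in the other cluster. In the Kit and Lmo1 cluster high Stra8 was measured in cells with Ccnd2, Sall4 and low Dmrtb1, and low Stra8 in cells with high Dmrtb1. In the Prss50 and Ly6k cluster it was high in cells with Rec8, Sycp1 and Sycp3 and no Sall4 UMI. The contrast of Stra8 with Dmrtb1 is described for the Kit and Lmo1 cluster only. When all cells were clustered, Prss50, Ly6k, Dmrtb1 and Stra8 were together among the leading genes of a germ cell cluster. Kit, Sycp3 and Dmrtb1 were among the markers that named the stage, but Stra8 was not.

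**Figure D4:**
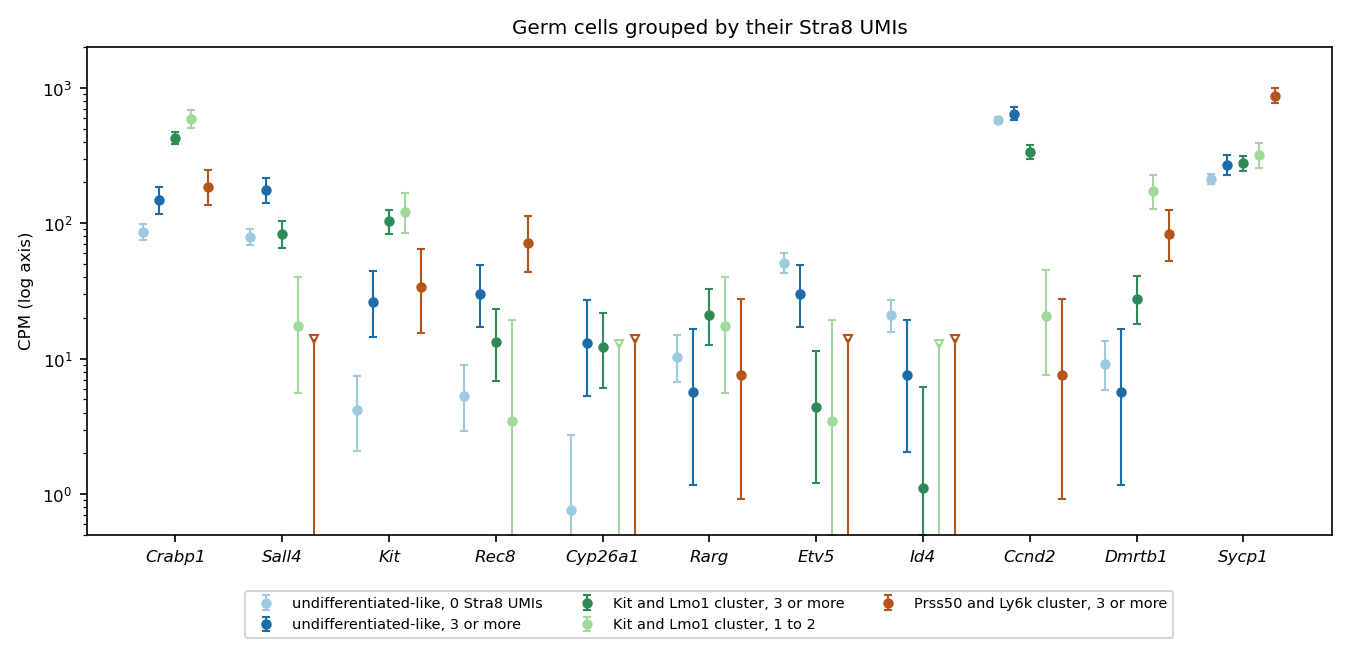
Levels (CPM, log axis) of 11 genes in 5 groups of germ cells defined by their number of Stra8 UMIs. Points are summed UMIs with exact Poisson intervals, cut at the lower edge of the axis, and open triangles mark the upper bound where a gene had 0 UMIs. Undifferentiated-like cells with 3 or more Stra8 UMIs had higher Crabp1, Sall4, Kit, Rec8 and Cyp26a1 than those with 0. The share of all genes that differed as much was not counted.

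The wider pathway list, as reported here, holds 48 genes, 39 of them beside the 9. Between differentiating-like and undifferentiated-like cells 23 of the 39 had 20 or more UMIs, 7 were at least 2-fold higher and 2 lower (8.14% and 9.96% of all genes tested), with a median log2 ratio of 0.39 against 0.10 over all genes. Rbp4, which transports retinol in blood, had 30.4 CPM in undifferentiated-like and 110 CPM in differentiating-like cells (log2 ratio 1.85, interval 1.51 to 2.20), with 93.7 CPM in the Kit and Lmo1 cluster and 158 CPM in the Prss50 and Ly6k cluster. The coregulator genes Nrip1 and Ncoa1 had 1.56 and 1.82 CPM in undifferentiated-like and 11.7 and 9.97 CPM in differentiating-like cells. Fabp5, which also carries retinoic acid, Dgat1, Cyp26a1 and Rec8 made up the rest of the 7. For Cyp26a1 the interval, -0.17 to 2.52, included 0.

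The 2 genes that were lower were Rxrg, a partner receptor, with 25 UMIs in undifferentiated-like cells (6.49 CPM) and 1 in differentiating-like cells (log2 ratio -3.47, interval -8.83 to -0.86), and Ccnd2 (-1.64, -1.81 to -1.47). Rxrg and Cyp26a1 had 26 and 22 UMIs in germ cells and 0 in 596 somatic cells, at least 8.36-fold and 7.07-fold higher when 3 counts are allowed over the somatic cells. The partners Rxra and Rxrb were found in every named class, with Rxra from 13.1 CPM in Sertoli-like to 50.4 CPM in macrophage-like cells and Rxrb from 15.4 CPM in progenitor-like to 33.5 CPM in Sertoli-like cells. The third RAR gene, Rarb, had 4 UMIs in all, all in SSC-like and progenitor-like cells, and Cyp26c1 and Ttr had 0.

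**Figure D5:**
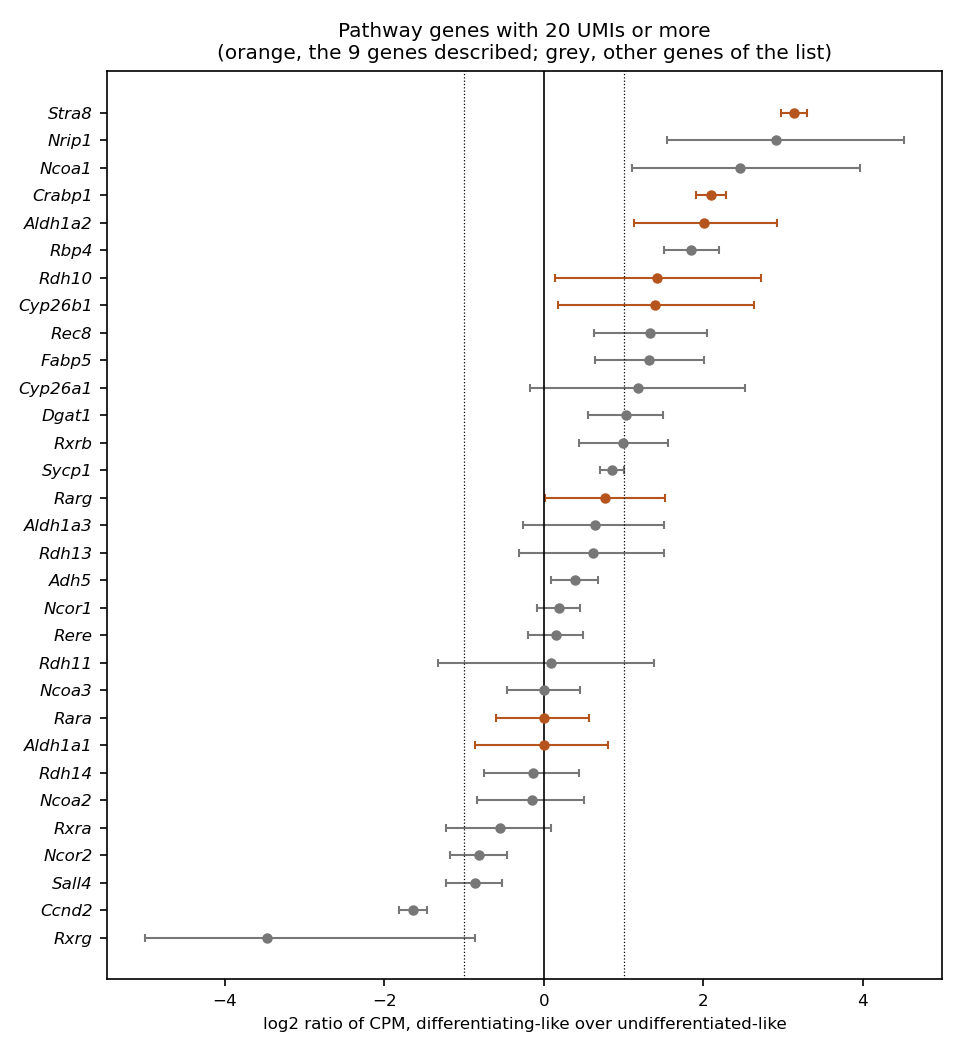
Log2 ratio of CPM in differentiating-like over undifferentiated-like cells for the 31 genes of the pathway list with 20 or more UMIs, ordered by size, with the genes described in orange. Bars are exact conditional binomial intervals, and that of Rxrg is cut at the edge of the axis. Stra8 had the highest ratio of the list, 3.13, and Rxrg the lowest, -3.47.

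Between Sertoli-like and other somatic cells 25 of the 39 other genes of the list had 20 or more UMIs. Of these, 5 were at least 2-fold higher in Sertoli-like cells and 6 lower, where 22.5% and 17.6% of 11146 genes were. The list as a whole was thus divided much as other genes were, and the genes named next are examples. Rbp4 had 74.3 CPM in peritubular myoid-like cells, 4.26 CPM in stromal-like and 0 UMIs in Sertoli-like cells. Of the named classes, macrophage-like cells had the highest Dhrs3, 116 CPM, and Fabp5, 477 CPM. Nr2f2, a nuclear receptor gene known to respond to retinoic acid, had 439 CPM in peritubular myoid-like cells, 321 CPM in stromal-like cells and 1.74 CPM in Sertoli-like cells. Lrat, which stores retinol as esters, had 3 UMIs in all cells.

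The genes whose levels over the 7 named classes followed each gene most closely were found by Pearson correlation of log2(CPM + 10) among genes with at least 100 UMIs, a description over 7 points that share a library. For Stra8 they were Fam90a1b (0.997), Spata33 (0.996) and Dpep3 (0.996), and for Crabp1 Dpep3 (0.998), Gm15097 (0.998) and Dab1 (0.997). For the Sertoli-like genes they were Plce1 (0.996), Mro (0.995) and Amhr2 (0.993) for Stra6, and Gm14226 (0.993), Gm2044 (0.991) and Gas7 (0.991) for Rara. Aldh1a1 was followed by Zfhx4 (0.997), Nr5a1 (0.995) and Adamts9 (0.995), Aldh1a2 by Rnf20 (0.987), Zfp24 (0.976) and Gne (0.970), and Cyp26b1 by Arhgap20 (0.998), Zbtb11os1 (0.995) and Atf5 (0.995). Rdh10 and Rarg had too few UMIs for this.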

How the data were processed

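The authors aligned the reads to mm10 with Cell Ranger 2.1.0 and deposited UMI counts per gene and barcode without normalization. Barcodes with fewer than 500 genes, with 10% or more mitochondrial UMIs, or called as doublets (4, by scrublet in scanpy 1.11.5) were removed. With Seurat 5.3.0 in R 4.3.3 the counts were log-normalized to 10000 UMIs and clustered at a resolution of 0.5 on 14 principal components, for all cells and again for germ cells, with the retinoid pathway list left out of the variable genes.

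Clusters were named from marker lists, after the leading 10 genes of each had been checked. These were first ranked by summed counts, which left a germ cell cluster with 1 hemoglobin-rich barcode unnamed, and were then ranked by mean log-normalized values, a change made after that was seen. The genes described, the lists and the groups of cells were chosen with earlier results of these data known. A gene of the pathway list is not reported here and is left out of its counts. Genes were named as the 9, the pathway list, the markers and the 3 genes closest in pattern to each of the 9 with at least 100 UMIs.

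Levels are UMIs per 1000000 UMIs of a class. Their intervals are exact Poisson ones at 95%, those of shares are exact binomial, and those of ratios come from the binomial split of UMIs between both classes. Genes with 20 or more UMIs in a pair of classes were counted as higher or lower from a 2-fold difference. For shares, cells were also thinned to 5000 UMIs, which left out cells of lower depth (36 differentiating-like, 20 Sertoli-like). Cells are not replicates, so no p-value was computed. Other filters, clusterings, germ cell definitions and means were tried in 18 other settings, and 5 more were added after values were seen. The Leydig marker cells, the Cidea and Fstl3 cluster and the groups by Stra8 UMIs were chosen after values were seen. The scripts were tested on simulated data. Sequences came from RefSeq and gene positions from GENCODE. Levels were not compared between genes, since reads come from transcript ends.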

Additional observations from a re-analysis of the deposited data

How the results depend on the processing

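No paired analysis was possible because there was a single library. Of 200 values of the 10 main log2 ratios under other settings, 176 stayed within the interval of the reported value and 24 left it, with 0 changes of direction in a ratio whose interval excluded 0. Of 194 values of 10 further ratios, 180 stayed and 14 left. Some settings could not change some ratios. Examples are the germ cell resolution for ratios among Sertoli-like cells, and the omission of Leydig marker cells for ratios among germ cells. Such values count as having stayed, so these counts overstate how steady the ratios were. Germ stages could not be named at a germ cell resolution of 0.3 or with a mitochondrial limit of 5%, and 5 settings gave no cluster that shared at least 0.5 of its cells (overlap over union) with the Cidea and Fstl3 cluster, so these are not among the counts above. In 4 of them the cluster closest to it had Aldh1a1 at 0.10 to 0.17 against the reported -1.004, and Rdh10 at -0.07 and -0.09 in 2. Leading genes by summed counts left 63 germ cells unnamed and among the somatic cells, which took Stra8 and Crabp1 in germ over somatic cells from 6.29 and 6.00 to 2.61 and 2.71.

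Stra8 in differentiating-like over undifferentiated-like cells (3.13) was 2.89 with at least 200 genes per cell, 2.78 with variable genes by vst, 1.87 in the count split, 2.42 for germ cells by Ddx4 or Dazl and 3.35 as a mean over cells. In SSC-like over progenitor-like cells (-0.11) it was 0.30, -0.96, 0.86 and 1.02 under the first 4 of these, -3.16 with 20 principal components and -4.44 at a resolution of 1.2. Rarg in germ over somatic cells (1.80) was 0.83 with a mitochondrial limit of 5%. Median mitochondrial shares were 6.67% in germ and 6.06% in Sertoli-like cells, so that limit removed most of both. They were 3.10% in stromal-like and peritubular myoid-like cells together and 1.39% in the shallow germ cells. Stra6 in Sertoli-like over all other cells (5.40) was 2.72 with that limit and 4.25 for germ cells by Ddx4 or Dazl, where Rara in Sertoli-like over germ cells (2.42) was 1.87. Aldh1a2 in Sertoli-like over stromal-like and peritubular myoid-like cells (2.64) was 3.85 in the count split. Aldh1a1 in Sertoli-like over other somatic cells (1.73) was 2.18 with the limit of 5%, 1.33 with none, 1.87 with 20 principal components, 1.97 in the count split, 2.02 as a mean over cells, 1.87 with leading genes by summed counts, 2.43 without the Leydig marker cells and 1.97 without the cell with most Aldh1a1. The causes were not tested. Leading genes by summed counts, the last pair, the omission of shallow germ cells and the division by Cidea or Fstl3 were added after values were seen. Depth limits what can be said of Rarg and Rdh10, with 83 and 88 UMIs, and of genes of the wider list with fewer, such as Cyp26a1 with 22.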
